A study of Mus musculus with 15 samples.

Results

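Satellite repeats are short sequences repeated head to tail in long arrays. In the mouse the major satellite fills the pericentromeric heterochromatin, beside the minor satellite on which the centromere assembles. These arrays carry repressive histone and DNA methylation marks and are nevertheless transcribed at low levels. In the foetal male germline, piRNAs of 25 to 30 nt guide the PIWI proteins MILI and MIWI2 to transposon transcripts and direct the methylation of transposon DNA. TEX15 is a nuclear protein of these germ cells, and the libraries described here compare mice with and without it.

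The 5 transcripts described are GSAT_MM and SATMIN, the consensus sequences of the major and the minor satellite in the table of repeat reads, and Gm10800, Gm10801 and Gm21738, gene models that lie on major satellite sequence. They are 2 of the 359 repeat consensus sequences with a read in gonocytes and 3 of the 54838 genes in the count tables. The members were chosen by measured values: they fell together in Tex15-/- gonocytes against controls. Their values in that comparison are therefore a description and carry no test. A search of the small RNA tables for rows with a satellite repeat name found 0 rows in each of the 6 libraries, and satellite small RNAs were therefore recognised by sequence.

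The gonocyte libraries hold RNA of MIWI2-tdTomato-positive cells sorted from E16.5 testes, 3 from Tex15+/-; Miwi2tdTom/+ control animals and 3 from Tex15-/-; Miwi2tdTom/+ animals, so both groups carry 1 reporter allele of Miwi2. The small RNA libraries, 3 Tex15+/- and 3 Tex15-/-, each came from 6 pooled whole E16.5 testes, in which germ cells and somatic cells are mixed. The P20 libraries are 3 whole-testis Tex15-/- samples, each from 1 testis at postnatal day 20. All animals had a mixed B6CBAF1/Crl; C57BL/6N background, and the null allele carries an insertion in exon 5. The sources used here do not give the litters of the samples, so p-values measure the spread between libraries.

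Gene reads ranged from 4893265 to 5697020 per gonocyte library, repeat reads from 662394 to 1277612, and small RNA reads of 18 to 32 nt from 11184854 to 83102785. Tex15 itself had 8183, 8315 and 9082 reads in control and 2338, 1267 and 1310 reads in knockout gonocytes, which fits the labels. The summed level of 12 germ cell markers was 3979 to 4233 CPM (counts per 1000000 gene reads, scaled by TMM, edgeR's correction for library composition) in control and 3952 to 4088 in knockout libraries. Somatic markers stood apart in part of the knockout libraries: 5 interstitial markers summed to 1380 CPM in knockout 2 and 330 in knockout 3, against 51.9 in knockout 1 and 53.3 to 67.0 in the controls. Knockout 2 and 3 were also above all controls for 7 Sertoli markers (92.5 and 64.3 against 7.56 to 12.2), 5 foetal Leydig markers (552 and 170 against 17.9 to 59.96) and 4 blood markers (20.3 and 24.4 against 5.31 to 7.22), and knockout 2 for 4 endothelial markers (184 against 41.2 to 49.0). No listed marker was at 0 in every library. Knockout 1 lay within or below the control range in all 5 somatic lists, so the values of knockout 1 are given beside the results of the members.

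What the members share in sequence is shown first, because the small RNAs below are read against it. The satellite array at the start of chromosome 9, which spans 38035 bases and holds 9 coding gene models and 1 lincRNA model, repeated best at a shift of 234 bases, where 71.3% of its bases were identical. The copy most like its neighbours was taken as the monomer (GRCm38, chr9:3027538-3027771, plus strand). Its stretch in capitals, bases 79 to 105, is the complement of an abundant small RNA described below. The window of Gm10800 most like it lies at chr2:98667053-98667286 on the minus strand, and capitals there mark the 13 bases that differ from the monomer. Both sequences are from the RefSeq copy of GRCm38.
monomer: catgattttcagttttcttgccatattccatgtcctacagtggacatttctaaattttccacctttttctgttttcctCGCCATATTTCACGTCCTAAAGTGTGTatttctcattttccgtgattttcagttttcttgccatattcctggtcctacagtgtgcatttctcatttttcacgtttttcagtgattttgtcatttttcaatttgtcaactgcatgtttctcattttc
Gm10800: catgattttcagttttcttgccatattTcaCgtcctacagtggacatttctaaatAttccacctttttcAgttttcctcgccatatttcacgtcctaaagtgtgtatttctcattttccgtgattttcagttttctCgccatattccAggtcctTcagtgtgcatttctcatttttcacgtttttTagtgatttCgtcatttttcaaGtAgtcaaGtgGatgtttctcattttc

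All 3 genes are read in the direction of the monomer as printed, a strand of 47.9% T and 17.1% A. Gm10800 (ENSMUSG00000075014, chr2:98666547-98667301, minus strand) has 660 exonic bases, of which 100% lie in satellite sequence. Gm10801 (ENSMUSG00000075015, chr2:98662237-98664083, plus strand) has 504 exonic bases, 94.6% of them satellite. Gm21738 (ENSMUSG00000095280, chr14:19415857-19418930, minus strand) has 681, again with 100% in satellite, and the monomer itself matched 94.4% of the bases of the best window of Gm10800 and 93.6% in the other two. The annotation calls each of the 3 genes protein coding.

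A search of GRCm38 with the monomer found 83 stretches of major satellite, 237561 bases in all. Of these bases 64.4% were on scaffolds not placed on a chromosome and 16.3% on chromosome 9. Satellite copies missing from the assembly are not seen by this search, so counts of places hold for GRCm38 only. Of all annotated genes, 13 had at least 20% of their exonic bases in these stretches, namely the 3 members and the 10 models of the chromosome 9 array. The 10 array models held 28 reads in all 6 gonocyte libraries together, 17 in control and 11 in knockout, and at most 12 for any model (Gm10717). Of the 72-base windows of Gm10800 that lie in these stretches, 78.7% occurred once among the stretches. The shares were 97.6% for Gm10801, 93.7% for Gm21738 and 0% to 26.1% for the array models. Windows were counted in the stretches only, not in the rest of the genome. Nearly all reads on satellite gene models lay on the 3 members, in which most such windows have 1 position among the stretches. The members were chosen by measured values, which need reads, so this follows at least in part from the choice. Windows were taken from whole gene spans, introns included, and their part in the read counts was not tested.

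In gonocytes, the read counts of GSAT_MM were 17319, 12612 and 18945 in control and 4020, 1536 and 1322 in knockout libraries. As a level this was 14501 ± 2968 CPM of repeat reads in control and 2529 ± 958 in knockout (mean ± SD, n = 3 each). Every knockout library lay below every control library, and the fitted log2 fold change was -2.52 (SE 0.22), or 5.73-fold lower. The lowest control was 3.35-fold above knockout 1, 3.92-fold above knockout 2 and 7.59-fold above knockout 3. GSAT_MM took 1.29% to 1.86% of all repeat reads in control and 0.126% to 0.315% in knockout gonocytes. For background, 25 of 301 consensus sequences tested, 8.31%, had every control library above every knockout library, GSAT_MM and SATMIN among them. In edgeR 0.664% passed an adjusted p of 0.01 with a lower level, and these were GSAT_MM and SATMIN themselves. Nothing is read from these counts for GSAT_MM and SATMIN, because the comparison chose them.

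SATMIN had 678, 650 and 826 reads in control and 394, 188 and 280 in knockout gonocytes. Its level was 637 ± 67.0 CPM of repeat reads in control and 326 ± 18.4 in knockout, with a log2 fold change of -0.97 (SE 0.17), or 1.96-fold lower. The groups did not overlap, and the lowest control was 1.76-fold above knockout 1. The decrease of the minor satellite was smaller than that of the major satellite in every knockout library: 1 SATMIN read went with 19.4 to 25.5 GSAT_MM reads in the control and with 10.2, 8.17 and 4.72 in the knockout libraries.

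The 2 other consensus sequences looked at by name were MMSAT4 and ZP3AR_MM. MMSAT4, another mouse satellite, had 5794, 5858 and 5878 reads in control and 5712, 5726 and 4884 in knockout gonocytes, which gave a fitted log2 difference of 0.40 (SE 0.20, adjusted p = 0.28 in edgeR). Its level was highest in knockout 2, which had the fewest repeat reads of the 6 libraries, and the difference turned to -0.09 when the repeats were scaled by the gene reads. ZP3AR_MM had 42, 42 and 28 reads in control and 54, 54 and 42 in knockout libraries, a fitted log2 difference of 0.88 (SE 0.39, adjusted p = 0.18 in edgeR). Its groups did not overlap, with 39.4, 36.9 and 23.9 CPM of repeat reads in control and 44.4, 99.3 and 46.4 in knockout. How many consensus sequences lay higher in every knockout library was not counted. Neither of the 2 sequences was among the 7.64% that passed an adjusted p of 0.01 in either direction.

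Gm10800 had 1370, 950 and 1490 reads in control and 306, 158 and 111 in knockout gonocytes. This was 239 ± 43.0 CPM of gene reads in control and 37.0 ± 21.4 in knockout, with a log2 fold change of -2.69 (SE 0.32), or 6.46-fold lower. Every knockout library lay below every control library, by 3.11-fold or more, and knockout 1 was the highest of the knockout libraries. Per kb of exon Gm10800 had 362 ± 65.1 CPM in control and 56.1 ± 32.4 in knockout.

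Gm10801 and Gm21738 had far fewer reads. Gm10801 had 111, 93 and 115 reads in control and 31, 13 and 11 in knockout gonocytes, a log2 fold change of -2.50 (SE 0.38). Gm21738 had 115, 50 and 83 reads in control and 23, 9 and 7 in knockout, a log2 fold change of -2.62 (SE 0.47). Per kb of exon the control levels were 39.8 ± 2.50 CPM for Gm10801 and 22.7 ± 8.21 for Gm21738. In both genes the groups did not overlap, and the lowest control was 3.002-fold and 2.18-fold above knockout 1. Over all 16311 genes tested, 6.68% had every control above every knockout library, and 0% passed an adjusted p of 0.01 in edgeR, where 1501 genes had an unadjusted p under 0.05. DESeq2 called 14 genes at the same threshold.

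**Figure D1:**
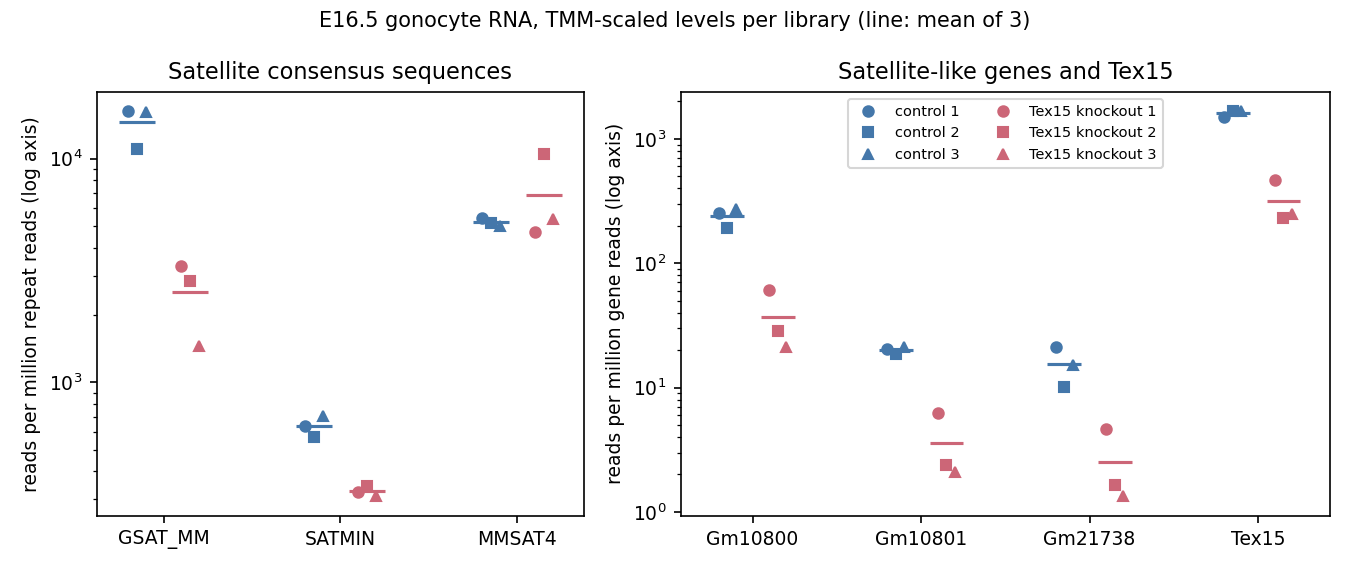
TMM-scaled levels in the 3 control and 3 knockout gonocyte libraries, on log axes, in CPM of repeat reads (left) and of gene reads (right). Points are libraries and lines are means of 3. Every knockout point of GSAT_MM, SATMIN and the 3 satellite-like genes lies below every control point, while the groups of MMSAT4 overlap.

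Because the genes were chosen for falling with GSAT_MM, their ratios to it and the likeness of their profiles restate that choice and are given as a description. Gm10800 had 75.3 to 79.1 reads per 1000 GSAT_MM reads in the control libraries and 76.1, 103 and 83.96 in the knockout libraries. For Gm10801 the same ratio was 6.07 to 7.37 in control and 7.71 to 8.46 in knockout, higher in every knockout than in any control library, and for Gm21738 it was 3.96 to 6.64 and 5.30 to 5.86. The knockout ratios of Gm10801 rest on 31, 13 and 11 reads of that gene, and those of Gm21738 on 23, 9 and 7. No interval was computed for the ratios, so nothing is read from the higher values of Gm10801. The genes lie on major satellite sequence and GSAT_MM is the major satellite consensus, so a read of such a gene may also count as GSAT_MM. Their sequences were not compared with that consensus. The 3 genes are therefore not taken as evidence independent of GSAT_MM. Over the 6 libraries the centred log2 profile nearest to GSAT_MM among 16311 genes was that of Gm10800, at a root mean square distance of 0.28, followed by Gm10801 at 0.34, Gm21738 at 0.36, Tex15 at 0.39 and Gm13868 at 0.42. Gm13868 is a low gene model with 12, 10 and 19 reads in control and 3, 3 and 1 in knockout libraries. Among the other 300 consensus sequences the nearest was RLTR19A_MM, an LTR element, at 0.74, then SATMIN at 0.88.

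A further value differed in the same knockout libraries as the somatic markers. Reads aligned to no annotated feature, which can be intronic or intergenic, were 32.4% to 36.5% of aligned reads in control libraries, 36.9% in knockout 1, 19.3% in knockout 2 and 26.2% in knockout 3. Set against those reads in place of repeat reads, GSAT_MM had 3.68 to 5.51 reads per 1000 in control and 1.13, 0.939 and 0.569 in knockout libraries, so the groups did not overlap on this scale either. Whether the lower satellite level reflects fewer transcripts per germ cell, fewer cells that make them, or both cannot be told apart in bulk libraries.

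Heterochromatin proteins were followed in a list of 60 gene names. The list also holds genes of DNA methylation, the centromere, mitosis and small RNA processing, and histone demethylases. Of the 60 names 58 were tested and 0 passed an adjusted p of 0.01 in edgeR, against 0% of all genes, and DESeq2 also called 0 of them. Tex15 itself, 5.11-fold lower in the knockout, was among the genes that edgeR did not call. The 0 of the list in edgeR can therefore not be read as no change. At an unadjusted p under 0.05 there were 4 of 58, or 6.90%, against 9.20% of all genes tested. The median log2 fold change of the list was 0.01, and that of all genes tested was -0.00031.

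Atrx, a chromatin remodeller that deposits histone H3.3 at pericentromeric repeats, had the smallest p of the list, with 285 ± 17.6 CPM in control and 207 ± 38.6 in knockout (log2 fold change -0.46, SE 0.13, adjusted p = 0.46 in edgeR). Atrx was at 252 CPM in knockout 1 and at 183 and 187 in knockout 2 and 3, the libraries with more somatic marker reads, and the part of those in the difference was not tested. Without knockout 1 the same gene differed by -0.61 on the log2 scale, with adjusted p = 0.0027 in edgeR, a fit in which 2.21% of all genes passed 0.01. Trim28, the co-repressor of KRAB zinc finger proteins, had a log2 fold change of 0.28 (adjusted p = 0.48 in edgeR, 311 CPM in knockout 1 against 223 to 283 in control) and Hells, a remodeller needed for DNA methylation of satellites, one of -0.27 (adjusted p = 0.48, 158 CPM in knockout 1 against 175 to 209 in control). Cenpb, which binds the minor satellite, had 8.91 ± 0.79 CPM in control and 18.6 ± 13.8 in knockout (adjusted p = 0.51), with 34.0 in knockout 2, 14.5 in knockout 3 and 7.41 in knockout 1. Top2a, a topoisomerase of dividing cells, had a log2 fold change of 0.30 (adjusted p = 0.55 in edgeR), and its 263 CPM in knockout 1 lay within the 231 to 298 of the controls.

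The small RNA libraries took no part in the choice of the members, and they were read for sequences identical to a major satellite stretch on either strand. Among 7113 distinct satellite sequences of 18 to 32 nt, 72 also matched elsewhere in GRCm38, and among the 4676 of 25 to 30 nt it was 13. The deposited tables put 97.5% to 100% of the 25 to 30 nt satellite reads in the class named nrRNA and gave them no repeat name. The 3 most abundant sequences of each length class are shown as examples of what was matched, and are given 5′ to 3′ with T for U, in lower case with bases 1 and 10 in capitals.
25 to 30 nt, rank 1: AcgacttgaAaaatgacgaaatcactaaa
25 to 30 nt, rank 2: AcacactttAggacgtgaaatatggcg
25 to 30 nt, rank 3: AtgagaaatAcacactttaggacgtgaaa
21 to 23 nt, rank 1: TaggacgtgAaatatggcgagg
21 to 23 nt, rank 2: TaggacgtgGaatatggcaaga
21 to 23 nt, rank 3: TttttcaagTcgtcaagtggatg

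The sequences of 25 to 30 nt have A at both marked bases, and those of 21 to 23 nt start with T, with A, G and T at base 10. All 3 of the longer ones are complementary to the Gm10800 transcript, whereas the 21 to 23 nt sequence of rank 3 runs in the direction of the gene. That of rank 1 matched only the Gm10800 stretch and other stretches on placed chromosomes, and was too far from the monomer to be placed on it with up to 3 differences. It was read 102, 1744 and 4978 times in control and 3, 0 and 57 times in knockout libraries. That of rank 2 is the exact complement of the capitals in the monomer above, and had 47, 915 and 4531 reads in control and 4, 0 and 26 in knockout libraries. That of rank 3 starts 9 bases upstream of it on the same strand, at base 114 of the monomer, and had 24, 668 and 2458 against 1, 0 and 24 reads. These sequences were picked by abundance, and control 3 had the most reads of each. Their higher counts in control libraries therefore follow at least in part from the choice. The libraries also differ in depth, so nothing is read from the raw counts.

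As a share of 18 to 32 nt reads, satellite small RNAs of 25 to 30 nt were more abundant in each control library than in any knockout library. How many transposon names separate in this way on that scale was not counted. In edgeR with that library size 370 of 751 names were called, 366 of them lower in the knockout. The separation is therefore not read as particular to the satellite. With each distinct sequence counted once the groups overlapped (exact permutation p = 0.20), with 382 sequences in control 1 and 476 in knockout 3. The spread within both groups was extreme. These small RNAs numbered 1056, 21337 and 78606 reads in the control and 121, 14 and 1517 in the knockout libraries. Per 1000000 reads of 18 to 32 nt (RPM) this was 76.6, 257 and 3881 in control and 7.21, 1.25 and 72.7 in knockout. Control 3 was 50.6-fold above control 1, and control 1 only 1.05-fold above knockout 3, whose exact 95% counting intervals, 72.1 to 81.4 and 69.1 to 76.4, overlapped. The means were 1405 ± 2146 and 27.0 ± 39.6, a ratio of 51.9 (n = 3 each), and without control 3 the ratio was 6.16. The two-sided exact permutation test gave p = 0.10, the smallest that 3 against 3 libraries allow, and 0.15 after Benjamini-Hochberg adjustment over the 3 length classes. Intervals cover counting error only, because the reads carry no molecular identifiers.

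Of the other length classes, that of 18 to 32 nt contains the reads of 25 to 30 nt, so it is not separate evidence. At 18 to 32 nt there were 93.5, 306 and 4565 RPM in control and 10.9, 2.68 and 92.9 in knockout (exact permutation p = 0.10, adjusted 0.15). With up to 1 mismatch to the satellite stretches allowed, the exact permutation p of this class was 0.20. At 21 to 23 nt there were 3.63, 8.58 and 111 in control and 0.953, 0.626 and 6.23 in knockout. Here control 1 lay below knockout 3, and the groups overlapped (exact permutation p = 0.20, adjusted 0.20). Reads of 21 to 23 nt numbered 50, 713 and 2258 in control and 16, 7 and 130 in knockout libraries, few beside those of 25 to 30 nt.

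**Figure D2:**
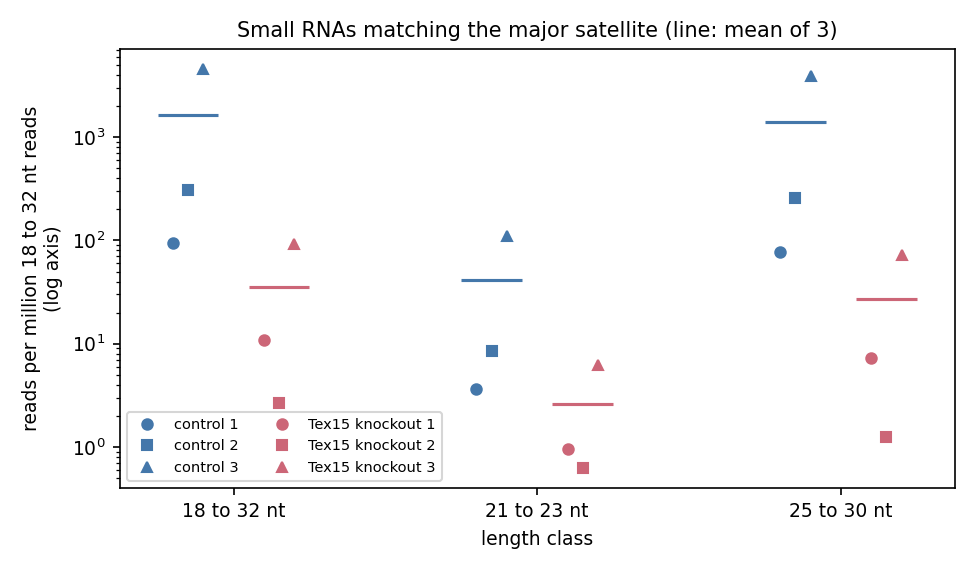
Small RNAs identical to a major satellite stretch, in RPM of 18 to 32 nt reads on a log axis, for 3 length classes. Points are libraries (3 control, 3 knockout) and lines are means. At 25 to 30 nt control 3 stands far above the other libraries at 3881, and control 1 and knockout 3 nearly meet at 76.6 and 72.7.

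Fitted in edgeR beside all transposon names, the 25 to 30 nt satellite reads differed by -4.56 on the log2 scale (SE 1.89, adjusted p = 0.21), and were not called at 0.01. Of the 751 names fitted, 0.133% were called in either direction. This fit uses TMM factors, which set the typical name to no change. With all 18 to 32 nt reads as library size, the scale of the RPM values above, the median of all names shifted by -1.01 on the log2 scale and 370 names were called, 49.3%, of which 366 were lower in the knockout. The satellite reads differed by -5.69 on that scale (adjusted p = 0.027 in edgeR) and were again not called. With total counts of the names in place of TMM factors the shift was -0.87, 50.6% were called and the satellite differed by -5.65 (adjusted p = 0.020 in edgeR). Over the alternatives the adjusted p ranged from 0.020 to 0.61, and without control 3 the log2 fold change was -1.65. In the fit with TMM factors control 1 (228 CPM of the reads fitted) lay below knockout 3 (410), so the groups overlapped, whereas 16.9% of the names had every control above every knockout library. All reads of 25 to 30 nt together made up 34.9% to 36.7% of the 18 to 32 nt reads in control, 35.8% in knockout 1, 24.7% in knockout 2 and 32.3% in knockout 3. The remaining reads of the nrRNA class at 25 to 30 nt were at 6490 to 7465 RPM in control and at 3115 to 3862 in knockout libraries. In control 3 alone the satellite made up 34.1% of that class, against 0.0402% to 3.79% in the other 5 libraries.

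Most satellite small RNAs came from the strand opposite to the satellite-like genes. At 25 to 30 nt, 94.8%, 94.1% and 94.1% of the reads in control and 98.3%, 100% and 93.3% in knockout libraries ran against the direction of the satellite-like genes. The groups overlapped (means 94.3% and 97.2%, exact permutation p = 0.40, adjusted 0.40 over 4 features). Knockout 2 had 14 reads, for which the 100% has an exact 95% interval from 76.8% to 100%.

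Reads that matched the Gm10800 stretch (chr2:98666545-98667332, 788 bases) exactly made up 85.1%, 85.2% and 85.1% of the 25 to 30 nt satellite reads in control and 78.5%, 78.6% and 83.7% in knockout libraries. The satellite on the other placed chromosomes without chromosome 9, 44917 bases in all, was matched by 89.5% to 91.8% in control and 78.6% to 89.3% in knockout libraries, a larger share than the Gm10800 stretch except in knockout 2, where both were matched by the same share. Chromosome 9, with 38803 bases, was matched by 69.6% to 74.9% in control and 57.1% to 77.9% in knockout libraries. Most reads matched more than 1 place, and 3.22% to 4.01% in control libraries matched the Gm10800 stretch and no other stretch of GRCm38. Reads matching Gm10801 were 50.8% to 56.4% and those matching Gm21738 48.8% to 49.9% of the same reads in control. Against Gm10800, 62786 reads of control 3 ran opposite to the gene and 4107 in its direction.

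In length, the satellite reads of control libraries were longer than transposon reads of the same libraries. Reads of 28 to 30 nt made up 67.0%, 70.7% and 66.4% of the 25 to 30 nt satellite reads in control, and 51.1%, 51.0% and 50.7% of the transposon reads. In the knockout libraries the satellite shares were 48.8%, 57.1% and 57.9%, and those of transposon reads 49.5%, 48.8% and 50.8%. The most frequent length was 29 nt in each control library, with 28.2%, 29.8% and 27.5% of the reads. Control and knockout libraries did not overlap in the satellite share of 28 to 30 nt (mean 68.1% ± 2.33 and 54.6% ± 5.07, n = 3 each, exact permutation p = 0.10, adjusted 0.20).

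**Figure D3:**
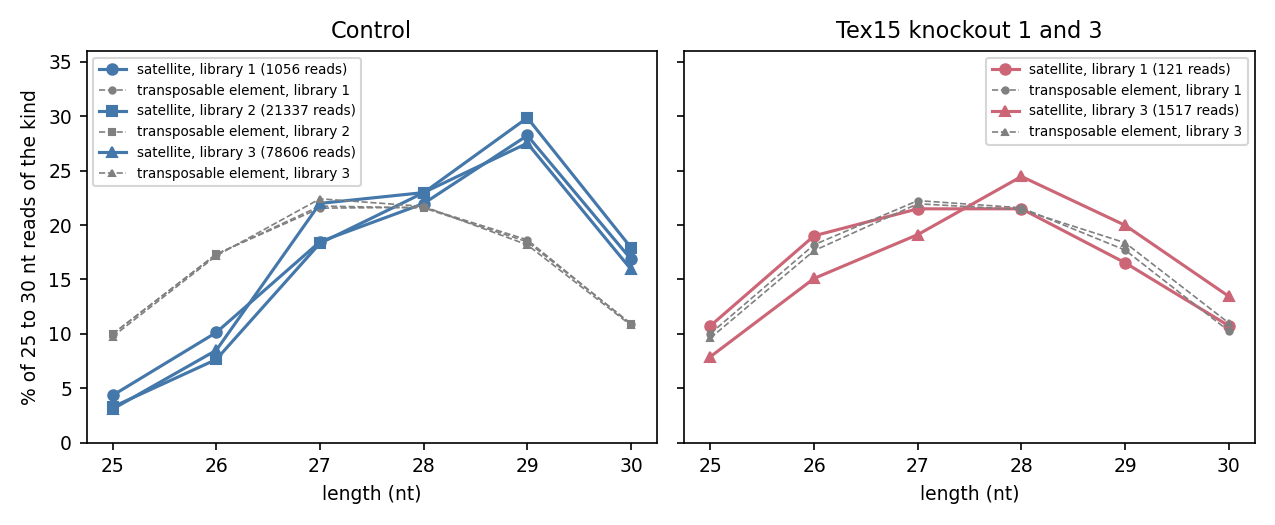
Share of each length among 25 to 30 nt reads, in percent, for satellite reads (colour) and transposable element reads (grey, dashed), by library. Knockout 2 is left out of the plot because it has 14 satellite reads. Satellite reads of the controls peak at 29 nt, while transposon reads of all plotted libraries peak at 27 or 28 nt.

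The first and the tenth base separate the known routes of piRNA formation: U at position 1 marks primary piRNAs, and A at position 10 marks those made by cleavage opposite a U-starting partner. In the control libraries 36.9%, 36.7% and 32.3% of the 25 to 30 nt satellite reads began with U, against 57.02%, 42.9% and 58.4% in the knockout libraries. Every knockout library was above every control (mean 35.3% ± 2.63 and 52.8% ± 8.61, n = 3 each, exact permutation p = 0.10, adjusted 0.20), though the 42.9% of knockout 2 has an exact 95% interval from 17.7% to 71.1%. Among all 25 to 30 nt reads of the same libraries 69.8% to 72.2% began with U, so the satellite share was lower in 6 of 6 libraries. U stood at 20.6% or less of all bases of the satellite reads in each library, and the share at position 1 was above that in 6 of 6 libraries, by 11.7 to 37.8 percentage points.

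A at position 10 was found in 70.8%, 73.1% and 74.8% of the satellite reads in control and in 55.4%, 78.6% and 58.7% in knockout libraries. The groups overlapped through the 14 reads of knockout 2 (mean 72.9% ± 2.01 and 64.2% ± 12.5, exact permutation p = 0.40, adjusted 0.40). Among all 25 to 30 nt reads A at position 10 made up 34.4% to 40.9%, so the satellite share was higher in 6 of 6 libraries. The strand that makes these reads is rich in A, which stood at 41.0% to 43.4% of all their bases, below the share at position 10 in each library. Counted over distinct sequences, A at position 10 was at 57.1%, 51.9% and 49.8% in control and 51.1%, 78.6% and 53.6% in knockout libraries. The control reads were concentrated in few sequences, of which that of rank 1 alone made up 9.66%, 8.17% and 6.33% of the control reads.

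**Figure D4:**
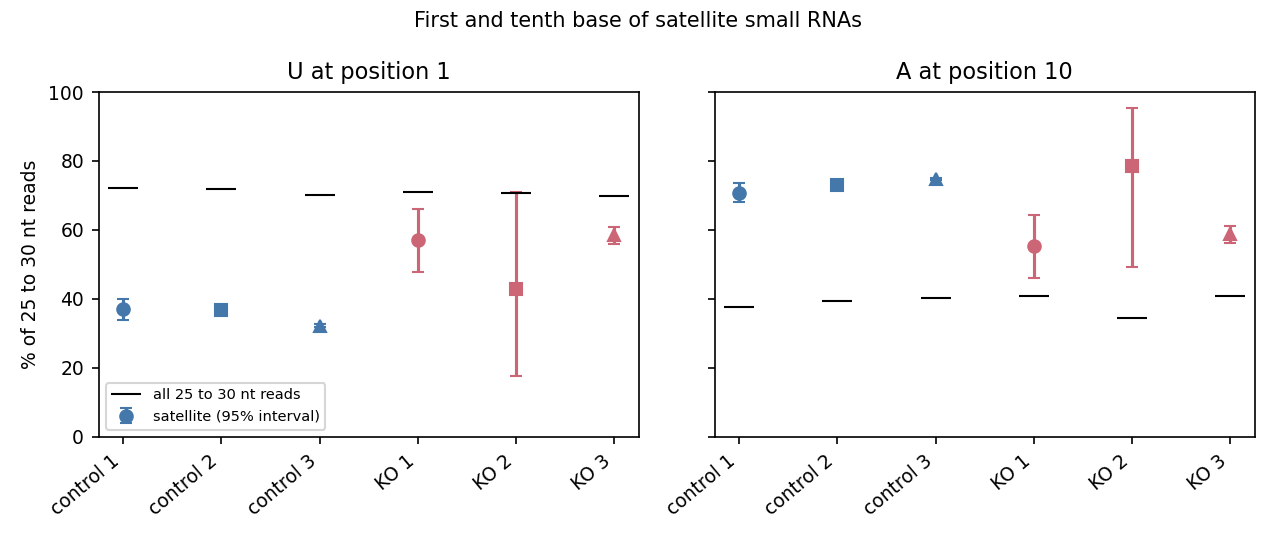
Share of 25 to 30 nt satellite reads with U at position 1 (left) and A at position 10 (right), in percent, by library, with exact 95% binomial intervals. Black dashes give the share among all 25 to 30 nt reads of the library. The 3 controls lie at 32.3% to 36.9% for U and at 70.8% to 74.8% for A.

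Placed on the monomer with up to 3 differences, the reads clustered at few 5′ ends. Of the 25 to 30 nt satellite reads 70.5%, 72.5% and 74.1% could be placed in control libraries. Base 105 of the monomer, where the sequence of rank 2 above starts, held 13.5% ± 2.35 (SD, n = 3) of the placed control reads, followed by base 114 with 10.8% ± 1.14, base 97 with 7.45% ± 1.68 and base 113 with 6.11% ± 1.24. The 6 leading bases together held 43.6%, 45.3% and 45.2% of placed reads in control and 31.96%, 36.4% and 39.7% in knockout libraries. They were ranked on the control libraries, so the lower shares in the knockout are a description.

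At bases 105, 113, 97, 120 and 33 the knockout libraries lay on 1 side of all controls, and at base 114 they did not. Knockout 1 and knockout 2 had only 97 and 11 placed reads, against 1193 in knockout 3. The place of knockout 2 thus rested on 0 reads at bases 105, 120 and 33 and on 1 read each at bases 113 and 97. Base 105 held 11.7%, 12.8% and 16.2% of placed reads in control and 6.19%, 0% and 5.70% in knockout libraries, where the 0 of 11 reads allows a share of up to 27.3%. Base 113 held 7.52%, 5.61% and 5.19% in control and 9.28%, 9.09% and 12.6% in knockout. Base 97, where reads begin with U as in the leading sequence of 21 to 23 nt, held 8.46%, 8.38% and 5.50% in control and 11.3%, 9.09% and 11.3% in knockout. The 9.09% of knockout 2 is 1 read at each of these bases. At base 114 the groups overlapped, with 9.53%, 11.1% and 11.8% in control and 1.03%, 18.2% and 6.12% in knockout. The bases were picked by their control values, so these shares carry no test. How many monomer positions outside these leading bases have all knockout libraries on 1 side of the controls was not counted. Nothing is therefore read from the separation at these bases.

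**Figure D5:**
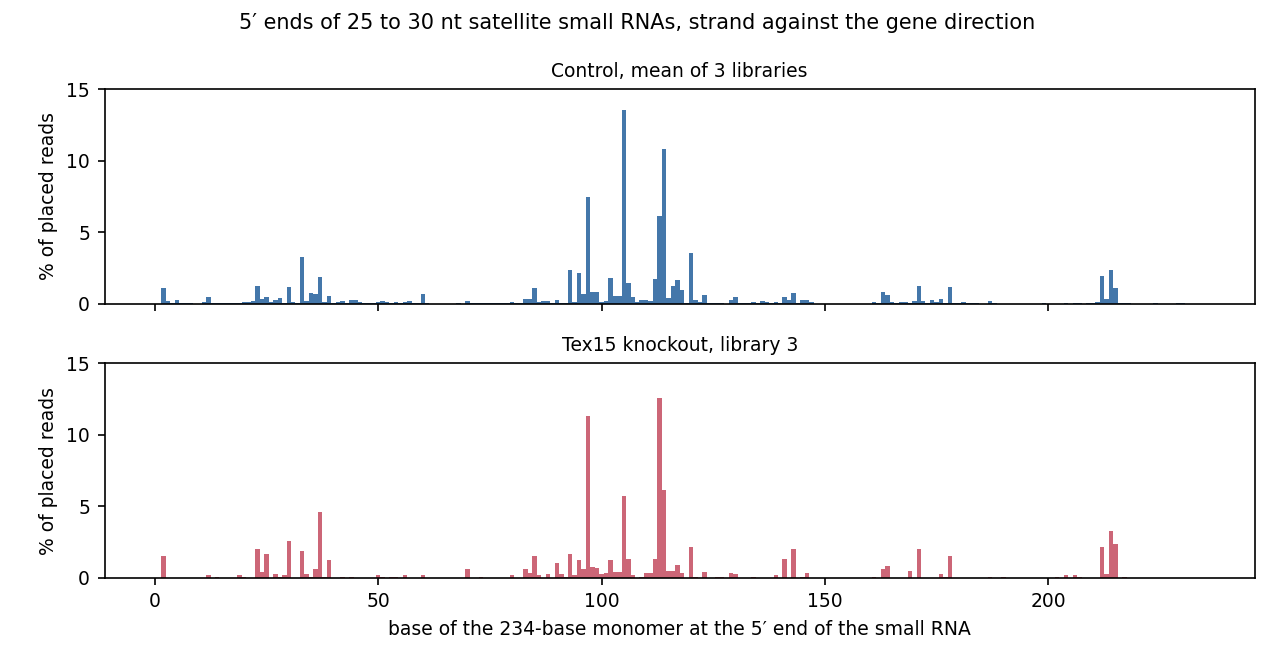
Position of the 5′ end of 25 to 30 nt satellite small RNAs of the strand against the gene direction, along the 234-base monomer, in percent of placed reads. The upper panel is the mean of 3 control libraries and the lower panel knockout 3. Base 105 leads in control at 13.5% and base 113 in knockout 3 at 12.6%.

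Pairs of reads from opposite strands whose 5′ ends overlap by 10 nt are the mark of reciprocal cleavage. Among overlaps of 1 to 30 nt on the monomer, an overlap of 10 nt made up 5.24%, 6.84% and 6.36% of read pairs in control, against 3.33% for an even spread. It ranked 7, 2 and 4 of 30 in these libraries, with overlaps of 26, 18 and 18 nt ahead of it. In knockout 3 it made up 16.3% and ranked 2, with only 55 placed reads in the gene direction. With each distinct sequence counted once the shares were 4.72%, 4.22% and 3.496% in control and 6.44% in knockout 3. Knockout 1 and knockout 2 had 1 and 0 placed reads in the gene direction, too few for the measure.

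At P20 the data hold knockout testes only, so no comparison by genotype was made. GSAT_MM had 190, 135 and 363 reads of 364477, 338254 and 397378 repeat reads, that is 0.0521%, 0.0399% and 0.0913%. The exact 95% interval of library 3, 0.0822% to 0.101%, did not overlap those of the other two, which reached up to 0.0601%. SATMIN had 1, 2 and 1 reads, below the 3 reads that a count of 0 allows. MMSAT4 had 215, 177 and 189 reads, so GSAT_MM stood at 0.884, 0.763 and 1.92 reads per MMSAT4 read. In gonocytes that ratio was 2.15 to 3.22 in control and 0.268 to 0.704 in knockout libraries. P20 and gonocyte libraries differ in tissue, age, extraction and library kit, so these values stand side by side only.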

How the data were processed

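Per the labels, the authors made RNA-seq libraries of sorted E16.5 gonocytes and P20 testes, and small RNA libraries of E16.5 testes. The deposited gene counts came from HISAT2 alignment to GRCm38 and HTSeq 0.11.1, the deposited repeat counts from Bowtie2 2.3.4.3 against Repbase rodent consensus sequences, and the deposited small RNA counts are reads per distinct sequence with an annotation. Nothing was normalised before deposit. The strand setting of the counting is not given in the sources used here. Of the repeat names with reads in gonocytes 66.6% to 71.2% had even counts, so both mates of a pair seem to be counted and the reads are not all independent. Rows that name no gene held 61.3% to 67.3% of each gene table and were left out, as was the row of unmapped reads.

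Counts were fitted with edgeR 4.0.16 (TMM, filterByExpr, quasi-likelihood test, Benjamini-Hochberg adjustment over all features, threshold 0.01), with DESeq2 1.42.0 as an alternative, and the scripts were tested on simulated counts. SATMIN and GSAT_MM were scaled by repeat reads, genes by gene reads. Satellite stretches of GRCm38 were found with BLAST 2.17.0 (word size 11, E-value 1e-10), genes were taken from GENCODE M21, and gene symbols matched 54723 of 54838 identifiers. Small RNA reads were divided by the library's 18 to 32 nt reads, and groups were compared by two-sided exact permutation of libraries. The design foresaw small RNAs annotated as satellite. As there were none, sequence identity took their place, and the share of exonic bases in satellite stretches that of annotated 25-mers. Neither the Repbase consensus nor a minor satellite sequence was at hand, so identity of GSAT_MM with the monomer was not checked and minor satellite small RNAs were not analysed here. The members and lists were chosen with earlier results of these data known. Named were the members, Tex15, tandem repeats of the repeat table, gene models on satellite sequence, the 5 list genes with the smallest p, the 5 nearest profiles and the 3 most abundant sequences of a length class. One listed model, Gm10714, lies on chromosome 2 outside satellite sequence and was not used, and Gm10713 was not matched. Replicate numbers were not used to pair the libraries in the main fits.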

Additional observations from a re-analysis of the deposited data

Results flagged for a closer look

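Reads of the major satellite were present in the P20 testis libraries, which enter no comparison because their control group is not analysed here. GSAT_MM had 190, 135 and 363 reads in the 3 libraries, above the 3 reads that a count of 0 allows.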

How the results depend on the processing

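Of 151 alternative values, 144 kept their direction and their side of the threshold or moved by less than 1 SD of the replicates. Many of them are refits of the members in the comparison that chose them, where the direction could hardly change. Others are permutation tests, whose p cannot fall under 0.10, so their side of the threshold could not change. The count is therefore not read as support. The log2 fold change of SATMIN moved from -0.97 to -1.34 with total counts in place of TMM factors and to -1.29 with the scale of the gene reads, settings that shift the median of all consensus sequences by -0.37 and -0.29. Leaving out 1 library at a time gave -2.75 to -2.27 for GSAT_MM, -3.24 to -2.40 for Gm10800, -3.14 to -2.23 for Gm10801 and -3.35 to -2.31 for Gm21738, and 0 to 1 heterochromatin genes called, the 1 being Atrx without knockout 1. Without that library edgeR called 388 genes, 2.21% of those tested, in place of 0. With no filter beyond a total above 0 it called 488 genes, 1.15%. With reads on no annotated feature as library size it called 184 genes, 1.13%. Of the consensus sequences, edgeR called 9 of 301 lower with total counts and 14 of 310 without knockout 1, in place of 2 of 301. On the scale of the gene reads 1 was called in either direction, in place of 23. Among the 751 small RNA names, DESeq2 called 56 in place of 1. With each distinct sequence counted once, the difference in A at position 10 (knockout minus control) turned from -8.70 to 8.17 percentage points. That sign rested on the 14 sequences of knockout 2: without it the difference over distinct sequences was -0.57, and without knockout 1 or 3 it was 13.2 or 11.9. The difference in 25 to 30 nt satellite reads ran from -2042 to -140 RPM over the libraries left out, smallest in size without control 3. The labels number replicates 1 to 3 in each group. Deviations of same-numbered libraries correlated by -0.14 to -0.01 over genes, 0.03 to 0.12 over repeats and -0.19 to 0.24 over small RNA names. Replicate 2 over repeats and replicate 3 over small RNA names matched their own number best. With 3 libraries per group and no litters given, these values neither show nor exclude a pairing. With the replicate block the log2 fold change was -2.57 for GSAT_MM and -4.44 for the satellite small RNAs (adjusted p = 0.090 in edgeR), with the same calls. Knockout 1 and knockout 2, with 121 and 14 satellite reads of 25 to 30 nt, limit every share in the knockout group. The match to the satellite stretches, the mismatch allowance of 1, the scale of reads on no feature, the satellite gene models and the knockout libraries left out over distinct sequences were chosen after seeing the data.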
